A study of Rattus norvegicus with 8 samples.

Results

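The MYC and MAX network was examined in BRL-3A, a rat liver cell line, through 8 genes: Myc, Mycn, Max, Mxd1, Mxi1, Mxd3, Mxd4 and Mnt. Its proteins are basic helix-loop-helix leucine zipper factors that bind DNA in pairs with MAX. Pairs of MAX with MYC or MYCN recruit activators to E-box sequences and are known for driving cell growth and division, whereas pairs of MAX with the MXD proteins, MXI1 or MNT recruit SIN3 corepressors to the same sequences. In liver, MYC is best known for its early rise after partial hepatectomy and for its part in liver tumours.

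All non-control probes that carried the name of a member were taken, which gave 10 of the 41012 non-control probes of the array and 8 of its 35071 distinct gene names. Mycn and Mxd4 had 2 probes each and the other 6 genes had 1, and the 10 probes covered 19 spots because the Myc probe was printed 10 times. Cells of 4 arrays had received siRNA directed at lnc19959.2, a long noncoding RNA (siRNA), and cells of the other 4 arrays a transfection that the labels call NC. Both groups were BRL-3A cells harvested 48 h after transfection with Lipofectamine, and each sample's Cy3-labelled RNA was read on its own Agilent rat expression array. The wider study concerned long noncoding RNAs in rat liver with high triglycerides. The level of lnc19959.2 could not be checked, since no probe was named for it.

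Values below are log2 intensities relative to the 75th percentile of the same array, so that 0 is the intensity at that percentile. A probe was called when limma gave an adjusted p under 0.05 over all 24853 probes that passed the filter on dim signal. All 10 member probes passed that filter and were well above background on all 8 arrays. The labels do not say whether the 4 arrays of a group came from separate cultures, and the p-values therefore measure a spread between arrays that may be technical only. The siRNA arrays shared 1 slide and 1 scan and the NC arrays another, so slide, scan and treatment cannot be told apart. On both slides the replicate number equals the position of the array on the slide. In RNA from a whole culture, fewer cells of a type and less RNA per cell cannot be told apart either.

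The arrays of a group correlated at r = 0.986 to 0.993 over the probes, and arrays of different groups at 0.946 to 0.962. The 75th percentile of intensity was 288.9 to 322.5 on siRNA arrays and 245.3 to 261 on NC arrays, and 55.4% to 59.1% of siRNA spots and 57.2% to 64.1% of NC spots lay well above background. Of the 14 hepatocyte markers examined, 10 did not pass the filter, among them Alb, Ttr and Apob. A hepatocyte identity was therefore not borne out by those defining genes, which do not speak to other cells of the liver. The summed level of the 4 that passed (Cyp2e1, Hnf4a, Fgb and Asgr1) was 4.59 to 6.38 on siRNA arrays and 0.435 to 0.64 on NC arrays, in multiples of the 75th percentile. These 4 went different ways: Cyp2e1 rose by 4.94 on the log2 scale, Hnf4a was called higher but was above background on 1 NC array, Fgb was not called, and Asgr1, above background on no siRNA array, was at least 4.70-fold lower. For fibroblast and stellate markers (7 of 12 passed) the sum was 312 to 328 on siRNA arrays and 267 to 295 on NC arrays, with 3 called higher, 1 lower and 3 not called. Col3a1 rose by 2.66, Dcn by 1.64 and Col1a2 by 0.61 on the log2 scale, Pdgfrb differed by -0.50, and Col1a1, Vim and Des were not called. Dcn lost its call with normexp background correction (0.59, limma, adjusted p = 0.151), and spike-in scaling turned the sign of Pdgfrb. Col6a1, Pdgfra, Lum and Thy1 did not pass. The endothelial sum (4 of 6 markers) was 3.07 to 4.22 on siRNA arrays and 1.5 to 2.08 on NC arrays, with Pecam1 and Stab2 not passing. Of these 4, Kdr rose by 1.64 on the log2 scale and Cdh5, above background on no NC array, was called higher, whereas Vwf and Tek, above background on no siRNA array, were at least 8.18-fold and 2.93-fold lower. Cholangiocyte markers (3 of 5) summed to 4.24 to 4.85 on siRNA arrays and 2.12 to 2.37 on NC arrays, with Krt19 and Epcam not passing. Only Krt7 of these 3 was called higher, by 1.75, and Sox9 and Spp1 were called lower, by -1.01 and -0.46, with the sign of Spp1 turned by spike-in scaling. The leukocyte markers (2 of 8) summed to 5.13 to 6.22 on siRNA arrays and 6.43 to 7.28 on NC arrays, with Cd68 called lower, Cd14 not called and Ptprc not passing. The sign of Hnf4a and of Cdh5 turned with normexp background correction. With that correction Asgr1 differed by -1.20, Vwf by -1.61 and Tek by -0.99 on the log2 scale, and Tek lost its call (limma, adjusted p = 0.0666). The bounds given above for these 3 genes therefore hold only for the main setting. The part of these markers in the network's differences was not tested.

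The members moved in different directions in siRNA cells. Myc was 3.52-fold lower and Mxd1 2.52-fold lower, while Mxd3 was 4.00-fold and the brighter Mycn probe 2.08-fold higher. Max was 1.28-fold lower, Mxi1 and Mxd4 were 1.17-fold to 1.25-fold higher, and Mnt did not pass the test, with the sign for Max turned by spike-in scaling and that for Mxi1 by normexp background correction. In all, 9 of the 10 probes were called, 6 higher and 3 lower, where 61.6% of all probes tested were called (29.4% higher and 32.2% lower), so the number of calls is read against a background in which most probes differed. Groups did not overlap for 8 of the 10 probes, against 58.2% of all probes. Of the 10 probes, 4 both passed the test and reached 2-fold under the main setting, against 13.1% of all probes. These were Mxd3 and the brighter Mycn probe upward, against 3.36% of all probes, and Myc and Mxd1 downward, against 9.78%. Mxd1 fell short of 2-fold with spike-in scaling (log2 difference -0.81) and normexp background correction (-0.89), as did Mxd3 with normexp (0.96). The brighter Mycn probe fell short with cyclic loess (0.96) and without NC array 3 (0.85). Myc stayed beyond 2-fold in every setting (-1.93 to -1.30), and the dimmer Mycn probe reached it with median (1.26) and spike-in scaling (1.48). Shares of all probes are not given for those settings.

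**Figure D1:**
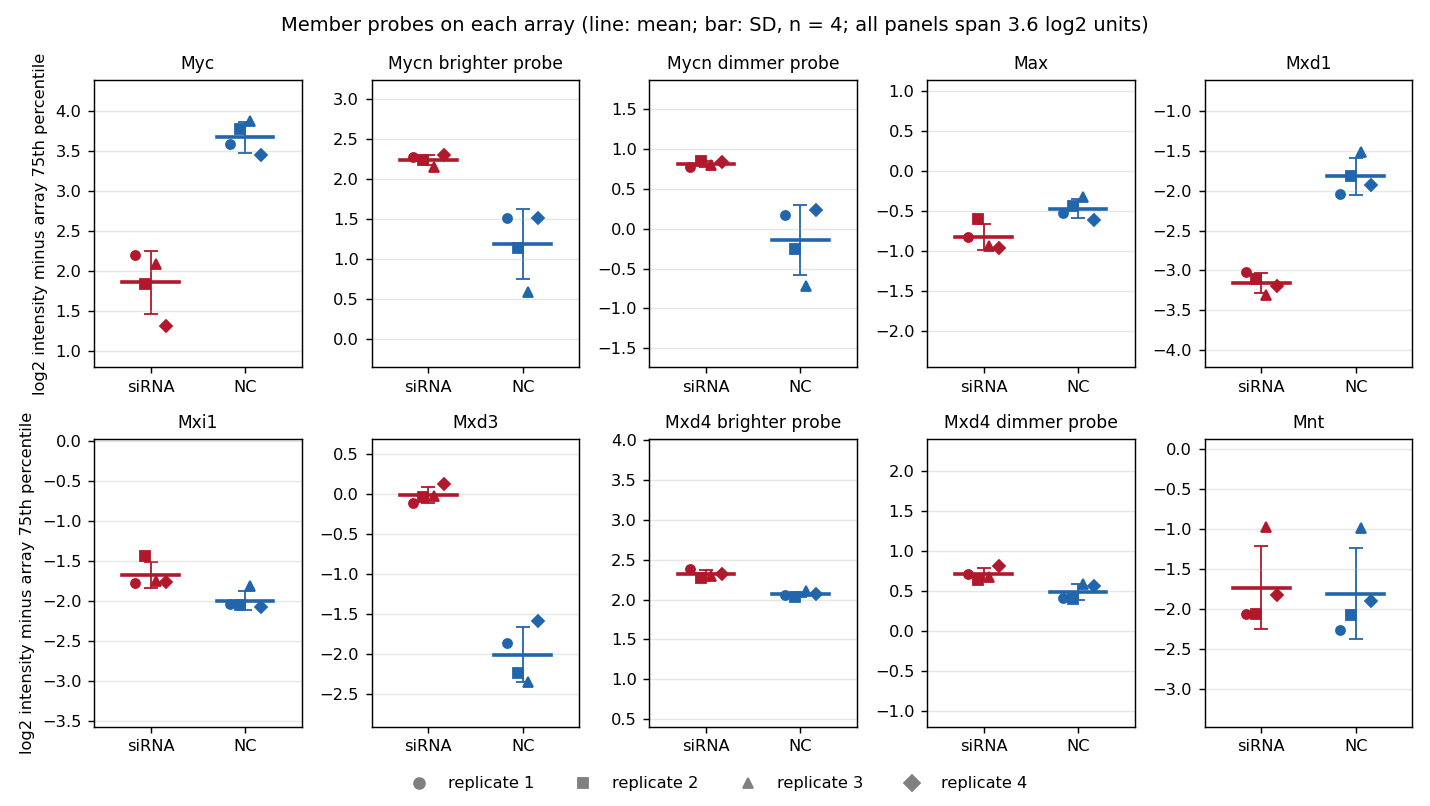
Log2 intensity relative to the array's 75th percentile (vertical axis) of the 10 member probes on each array, siRNA in red and NC in blue, with the group mean as a line, the SD as a bar (n = 4) and a marker shape per replicate number. Myc and Mxd1 lie lower and Mycn and Mxd3 higher on all 4 siRNA arrays than on any NC array, whereas Mnt is highest in replicate 3, the same position on the slide, in both groups.

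Probe sequences show which part of a transcript was measured. The 3 probes below are given in sense orientation, 5′ to 3′, from the array design on rat build rn4. They are shown because they fall in the regions coding for the dimerisation domains: that of the brighter Mycn probe (chr6:36509194-36509253, minus strand) and that of Max (chr6:99530072-99531349, minus strand, with an intron inside the interval) code for leucine zipper residues, and that of Mxd1 (chr4:120804473-120806018, minus strand, also with an intron inside) for part of the helix-loop-helix.
Mycn: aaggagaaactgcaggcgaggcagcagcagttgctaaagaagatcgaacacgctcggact
Max: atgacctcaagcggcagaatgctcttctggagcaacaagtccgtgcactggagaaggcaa
Mxd1: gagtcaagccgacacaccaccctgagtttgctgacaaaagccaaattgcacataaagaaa
In 5 of the 10 probes the genomic interval exceeds the 60 bases of the probe by more than 1 base, where the probe joins exons.

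Myc, the most widely used activator of the family, was lower in siRNA cells, and its 10 spots per array allowed the error within an array to be read too. The Myc probe lies on chr7:98957687-98957746 (rn4, plus strand). Its log2 level was 2.20, 1.83, 2.08 and 1.31 on siRNA arrays 1 to 4, and 3.58, 3.78, 3.88 and 3.45 on NC arrays 1 to 4. Every siRNA array was below every NC array, and siRNA array 4 was the lowest of all. The mean was 1.85 ± 0.39 in siRNA cells and 3.67 ± 0.19 in NC cells (SD, n = 4 each), a log2 difference of -1.82 ± 0.20 (SE; limma, adjusted p = 0.000149). A fall at least as large was seen in 4.37% of all probes.

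Before any scaling, the mean intensity of the Myc spots was 1325, 1092, 1244 and 798.6 on the siRNA arrays, and 3133, 3497, 3610 and 2819 on the NC arrays. The spots of 1 array varied by a coefficient of variation of 2.36% to 4.58%, or an SD of 0.03 to 0.07 on the log2 scale, which is smaller than the SD between arrays of either group. Among the spots kept, the brightest on any siRNA array read 1394 and the dimmest on any NC array 2700. Feature Extraction had marked 1 Myc spot as an outlier on each of 7 arrays, and these 7 spots were left out. It was the same spot of the array layout on all 7. On siRNA array 1 it read 1373, within the range of the spots kept there. With outlier spots kept, the Myc difference was -1.81.

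**Figure D2:**
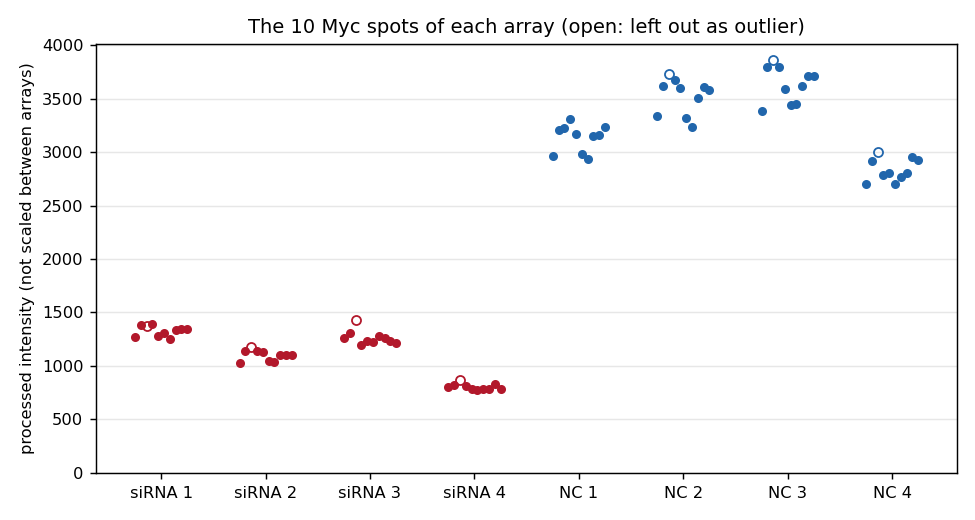
Processed intensity, without scaling between arrays, of the 10 Myc spots on each array, siRNA arrays in red on the left and NC arrays in blue on the right; open circles are the 7 spots left out as outliers. The kept siRNA spots reach 1394 at most and the kept NC spots start at 2700.

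Mycn, a paralog of Myc with the same partner and largely the same binding sequence, was higher in siRNA cells by both of its probes. The brighter probe read 2.27, 2.24, 2.16 and 2.30 on the siRNA arrays, and 1.52, 1.14, 0.59 and 1.51 on the NC arrays. The siRNA arrays lay close together and above all NC arrays, of which array 3 was the lowest. The log2 difference was 1.05 ± 0.20 (SE; limma, adjusted p = 0.00232). The dimmer probe (chr6:36508488-36508548, minus strand) read 0.77, 0.84, 0.80 and 0.83 on the siRNA arrays, and 0.17, -0.25, -0.72 and 0.23 on the NC arrays. It repeated the order of the groups, with NC array 3 again lowest, and differed by 0.95 ± 0.20 (SE; limma, adjusted p = 0.00368). With scaling to the spike-in controls the brighter probe differed by 1.58 and the dimmer by 1.48. The differences were smaller with cyclic loess (0.96 and 0.91) and without NC array 3 (0.85 and 0.76), and both probes stayed called. Mycn and Myc thus changed in opposite directions in the same RNA.

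Max, the common partner of the other members, was 1.28-fold lower. Its probe read -0.82, -0.60, -0.94 and -0.96 on the siRNA arrays, and -0.52, -0.43, -0.32 and -0.61 on the NC arrays. The groups overlapped by a narrow margin, since siRNA array 2 stood level with NC array 4. The difference of -0.36 ± 0.10 was called (SE; limma, adjusted p = 0.0131), but it was -0.05 with median scaling (adjusted p = 0.656) and turned to 0.16 with spike-in scaling (adjusted p = 0.147), so its direction depended on the scaling. With normexp background correction it was -0.37 (adjusted p = 0.099).

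The MXD genes, whose products compete with MYC for MAX and which are known for accompanying cell cycle exit and differentiation, divided into 1 gene that fell and others that rose. Mxd1 read -3.02, -3.11, -3.31 and -3.19 on the siRNA arrays, and -2.04, -1.81, -1.51 and -1.92 on the NC arrays. All siRNA arrays lay below all NC arrays, and NC array 3 was the highest. The log2 difference was -1.34 ± 0.12 (SE; limma, adjusted p = 6.17e-05). Mxd1 was among the dimmer members, with processed intensities of 29.6 to 35.7 on siRNA arrays and 63.5 to 86.1 on NC arrays, and its difference shrank to -0.89 with normexp background correction (adjusted p = 0.0159).

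Mxd3, the MXD gene known for being expressed in S phase of dividing cells rather than in differentiating ones, was higher in siRNA cells. Its probe (chr17:15349346-15349485, rn4, plus strand) joins exons and lies in the coding sequence, and it is shown because it carries a difference of 4.00-fold.
Mxd3: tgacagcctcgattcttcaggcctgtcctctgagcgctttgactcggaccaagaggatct
The log2 level was -0.11, -0.04, -0.03 and 0.13 on the siRNA arrays, and -1.86, -2.24, -2.35 and -1.60 on the NC arrays. No array of either group came near the other group. The log2 difference was 2.001 ± 0.16 (SE; limma, adjusted p = 3.96e-05), and a rise as large was seen in 0.487% of all probes. It was 0.96 with normexp background correction (adjusted p = 0.0424) and 2.52 with spike-in scaling. Mxd3 was dim on the NC arrays, with processed intensities of 48.1 to 85.5, beside 267.3 to 353.3 on the siRNA arrays.

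Mxi1 (also called MXD2), a further MAX-binding repressor, was measured by a probe that joins exons on chromosome 1 (chr1:259511025-259526483, rn4, plus strand). It read -1.77, -1.43, -1.75 and -1.76 on the siRNA arrays, and -2.04, -2.05, -1.82 and -2.07 on the NC arrays. The groups did not overlap, but siRNA array 2 and NC array 3 each stood above the other 3 arrays of their group. The difference of 0.32 ± 0.10 was called (SE; limma, adjusted p = 0.0212). It turned to -0.10 with normexp background correction (adjusted p = 0.75), was 0.24 with scaling to the probes bright on all arrays (adjusted p = 0.0565) and lost its call without NC array 1, 2 or 4 (0.30, 0.30 and 0.29, adjusted p = 0.0511, 0.0556 and 0.0524).

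Mxd4, an MXD gene expressed in many tissues, rose slightly by both probes. The brighter one (chr14:82264481-82264540, plus strand) read 2.38, 2.27, 2.29 and 2.31 on the siRNA arrays, and 2.06, 2.03, 2.11 and 2.07 on the NC arrays. The arrays of each group lay close together without overlap, and the difference of 0.25 ± 0.05 was called (SE; limma, adjusted p = 0.00195). The dimmer probe (chr14:82263596-82264120) read 0.71, 0.64, 0.68 and 0.81 on the siRNA arrays, and 0.41, 0.39, 0.59 and 0.56 on the NC arrays, a difference of 0.22 ± 0.07 (SE; limma, adjusted p = 0.0195). Normexp background correction ended the call of the brighter probe (0.46, adjusted p = 0.114) and of the dimmer (0.31, adjusted p = 0.147), and the dimmer probe also lost it with cyclic loess (0.17, adjusted p = 0.0676), with scaling to the probes bright on all arrays (0.15, adjusted p = 0.126) and without NC array 1 or 2 (adjusted p = 0.0508 and 0.0561). Spike-in scaling gave 0.77 and 0.74 for the brighter and dimmer probes.

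Mnt, a MAX-binding repressor found in both resting and dividing cells, gave no difference that passed the test. It read -2.07, -2.06, -0.98 and -1.83 on the siRNA arrays, and -2.27, -2.08, -0.99 and -1.90 on the NC arrays. Replicate 3 was the highest in each group by a wide margin, and the groups overlapped. The difference was 0.08 ± 0.34 (SE; limma, adjusted p = 0.858, unadjusted p = 0.828), and its sign depended on the setting, from -0.30 with normexp background correction to 0.60 with spike-in scaling. The probe lies at chr10:62159377-62159436 (rn4, plus strand).

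**Figure D3:**
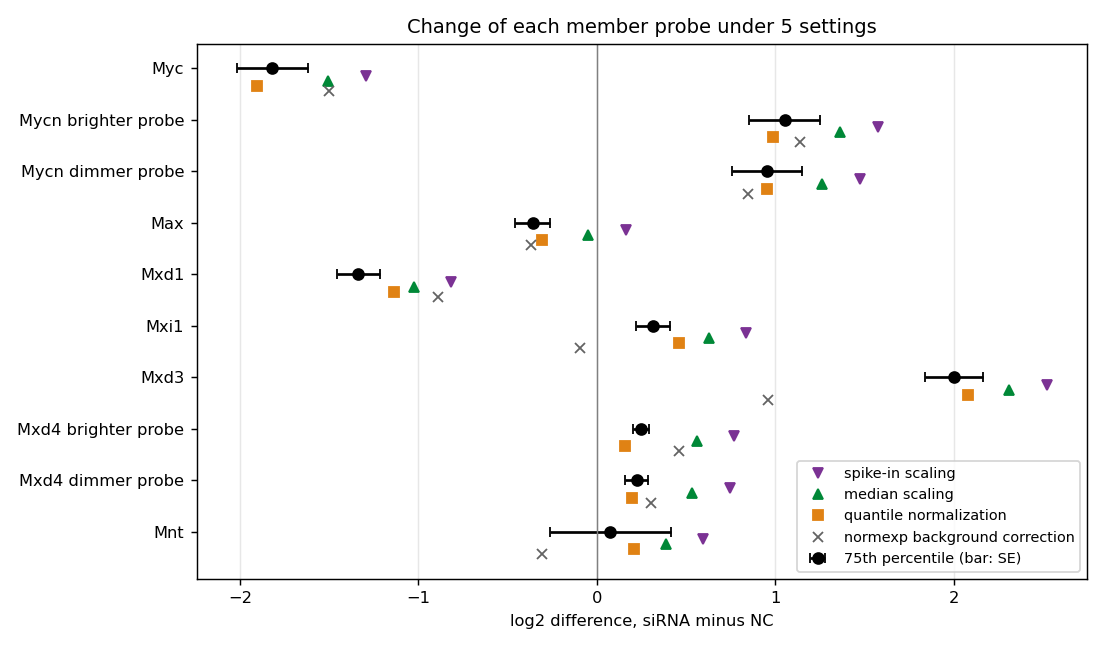
Log2 difference, siRNA minus NC (horizontal axis), of each member probe under the 75th-percentile scaling (black, with its SE, n = 4 arrays per group) and under 4 other settings. Myc and Mxd1 stay below 0 and Mycn, Mxd3 and Mxd4 above 0 in all 5 settings, whereas Max changes sign with spike-in scaling and Mxi1 and Mnt with normexp background correction.

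The choice of scaling moved every probe. The median of all probes shifted by 0.31 on the log2 scale with median scaling and by 0.52 with spike-in scaling, and the changes given here are relative to the scaling to the 75th percentile. A difference between 2 genes of the same array does not depend on such a factor. The log2 level of Myc minus that of each other member was therefore compared between groups by exact two-sided permutation tests of 4 against 4 arrays, for which the smallest possible p is 0.0286, with adjustment over the 7 pairs. These values show unequal change between genes, not the ratio of their transcripts.

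Relative to Mxd3, Myc stood at 2.31, 1.87, 2.11 and 1.18 on the siRNA arrays, and at 5.45, 6.01, 6.23 and 5.04 on the NC arrays. The groups were far apart, with a shift of -3.82 (exact p = 0.0286, adjusted p = 0.0333). Relative to Max it stood at 3.02, 2.44, 3.02 and 2.27 on the siRNA arrays, and at 4.11, 4.21, 4.20 and 4.05 on the NC arrays, a shift of -1.46 with the same exact p and adjusted p. The shift was -2.87 against Mycn, -2.13 against Mxi1, -2.07 against Mxd4 and -1.89 against Mnt, each without overlap and each with an exact p = 0.0286 (adjusted p = 0.0333). Against Mxd1, which fell as Myc did, the shift was -0.48, the groups overlapped and the test did not pass (exact p = 0.0857, adjusted p = 0.0857). Myc thus fell relative to 6 of the 7 other members on the arrays themselves, and its difference from Mxd1 was not resolved by 4 arrays per group. With normexp background correction the shift was -1.13 against Max, -1.40 against Mxi1 and -1.19 against Mnt, and these no longer passed (each exact p = 0.0857). With quantile normalization the shift against Mxd1 was -0.77 and passed (exact p = 0.0286).

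**Figure D4:**
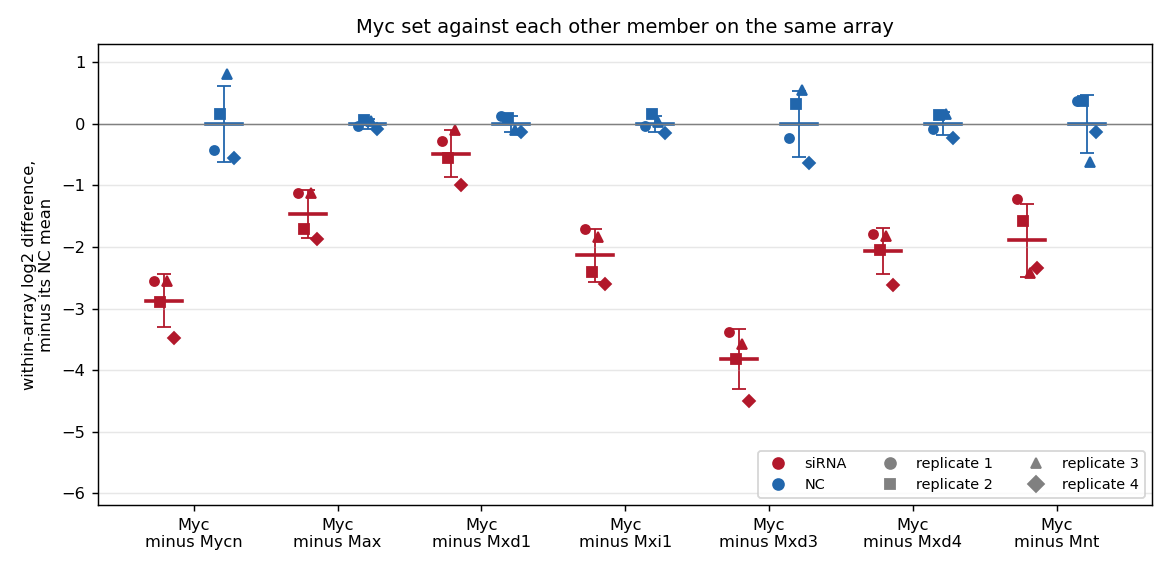
Log2 level of Myc minus that of each other member on the same array, with the NC mean of each pair set to 0 (vertical axis, log2 units), siRNA in red left of NC in blue; lines are means, bars SD (n = 4) and shapes replicate numbers. The siRNA arrays lie below all NC arrays for 6 pairs, by -3.82 for Mxd3, and overlap them for Mxd1.

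Within the NC group the members also varied between arrays. NC array 3 had the highest Myc and Mxd1 and the lowest Mycn and Mxd3 of the 4. Max, Mxi1, both Mxd4 probes and Mnt were highest on NC array 3 too, although Mxi1 and Mxd4 were higher in siRNA cells. That array also had the lowest 75th percentile of intensity, 245.3. The order of Mxd3 over the NC arrays (4, 1, 2, 3) was the reverse of that of Myc. The mean log2 level of 12 proliferation markers was 3.08, 3.26, 3.17 and 3.23 on the siRNA arrays, and 2.27, 2.08, 1.81 and 2.30 on the NC arrays, so the NC arrays had the same order for these markers as for Mxd3, whereas the siRNA arrays did not (4, 3, 2, 1 for Mxd3 and 2, 4, 3, 1 for the markers). All 12 markers were called higher in siRNA cells, against 35.8% of all 10812 genes, with a median difference of 1.08 against 0.04 for all genes. Birc5, an inhibitor of apoptosis needed for chromosome segregation, rose by 1.77 Aurkb, a mitotic kinase, by 1.36, Foxm1, a transcription factor of mitotic genes, by 1.27 and Mki67, a marker of cycling cells, by 1.23 on the log2 scale. All 12 were called higher under each scaling and background setting run. The markers therefore moved with Mxd3 and Mycn and against Myc and Mxd1, and their part in the members' differences was not tested.

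Over the 8 arrays, the genes whose profile lay closest to that of Myc, as the smallest mean absolute difference of log2 levels centred on the NC mean, were Syngr3 (0.05, above background on 3 of the 4 siRNA arrays), Atf3 (0.06), Cldn9 (0.07), Tslp (0.07) and Klf6 (0.07) among 10812 genes. Atf3, a stress-induced transcription factor, was lower by -1.90 ± 0.19 on the log2 scale in siRNA cells and Klf6, a zinc finger factor induced by injury, by -1.86 ± 0.14 (SE, n = 4 each). A likeness of this kind is fixed mostly by the difference between groups.

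Genes known from other systems as MYC targets were called in both directions. Of 28 measured genes of the nucleolus and ribosome assembly, 6 were higher, 6 lower and 16 not called, with a median of -0.02, where 35.8% of all genes were higher and 29.2% lower. Fbl, the methyltransferase of ribosomal RNA, rose by 0.43 and Gnl3 (nucleostemin) fell by 0.46 on the log2 scale. Polr1c, a subunit of RNA polymerases I and III, rose by 0.40, Ncl by 0.28 and Npm1 by 0.22, whereas the ribosome assembly factors Ppan, Pes1 and Rrp9 differed by -0.41, -0.27 and -0.23. These counts depended on the scaling, with 22 higher and 1 lower under median scaling, 26 higher and none lower under spike-in scaling but 3 higher and 12 lower under cyclic loess and 4 higher and 11 lower under quantile normalization and under scaling to the probes bright on all arrays, and spike-in scaling turned the sign of all 4 lower genes named here (Gnl3 to 0.06), median scaling that of Pes1 and Rrp9 and normexp that of Pes1. Under normexp background correction none of the 28 was called either way.

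Of 38 measured targets of growth and metabolism, 18 were higher and 7 lower, with a median of 0.19, beside 35.8% higher and 29.2% lower among all genes. E2f1, a driver of S phase entry, rose by 1.51 ± 0.15 and Got1, an aspartate aminotransferase, by 1.45 ± 0.22 on the log2 scale (SE; limma, adjusted p = 0.000114 and 0.000798). Cdk4, a kinase of the G1 phase, rose by 0.56 and Ptma (prothymosin alpha) by 0.34. Hk2 (hexokinase) differed by -0.46, Shmt2, a mitochondrial enzyme of one-carbon metabolism, by -0.29 and Odc1, the first enzyme of polyamine synthesis, by -0.28. Spike-in scaling turned the sign of all 3 of these last genes and median scaling that of Shmt2 and Odc1, with 34 genes higher and none lower under spike-in scaling and 29 higher and none lower under median scaling. Normexp background correction left 4 higher and none lower and turned Shmt2 too.

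Among 18 measured genes known as repressed by MYC, 5 were higher, 10 lower and 3 not called, with a median of -0.30, beside 35.8% higher and 29.2% lower among all genes. The cell cycle inhibitors divided: Cdkn1c (p57) rose by 1.56 ± 0.08 and Cdkn2c (p18) by 1.38 ± 0.10, whereas Cdkn1a (p21) fell by 1.09 ± 0.07 on the log2 scale (SE; limma, adjusted p = 3.96e-06, 2.69e-05 and 1.02e-05). The growth arrest genes Gadd45a and Gadd45b fell by 1.20 and 1.33 and the antiproliferative gene Btg2 by 1.83, while Ndrg2 rose by 1.02 and the collagen gene Col1a2 by 0.61. The genes named here kept their sign under median scaling, spike-in scaling and normexp background correction, although normexp ended the call of Cdkn1a (adjusted p = 0.069). The number of lower genes was 6 under median scaling, 5 under spike-in scaling and 4 under normexp background correction. It was 12 under quantile normalization, cyclic loess and scaling to the probes bright on all arrays.

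**Figure D5:**
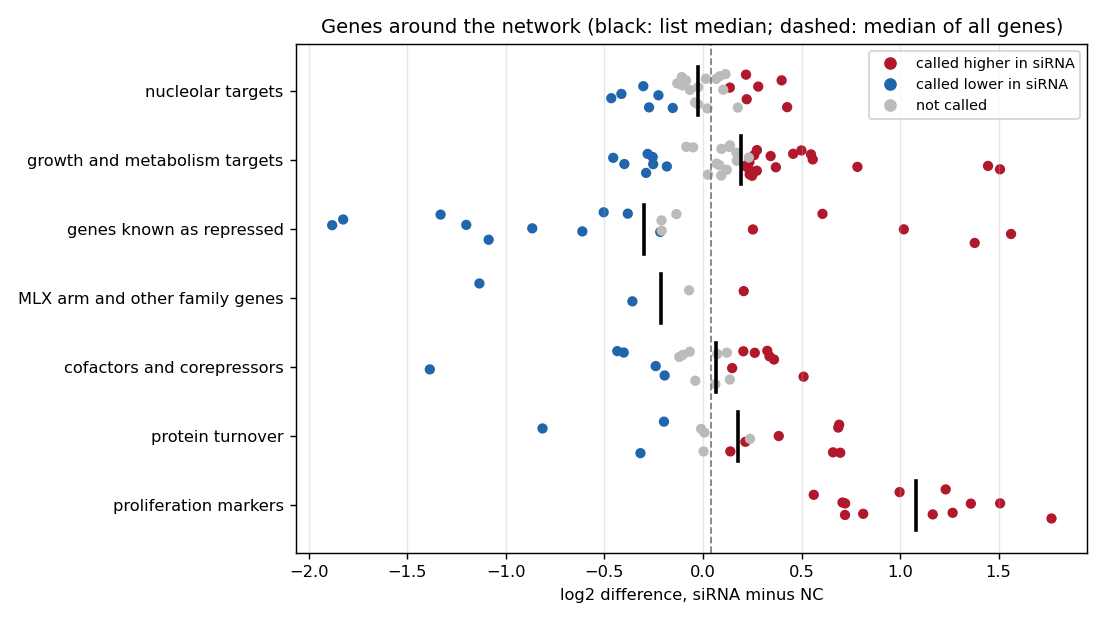
Log2 difference, siRNA minus NC (horizontal axis), of each measured gene of 7 lists around the network under 75th-percentile scaling, red where called higher, blue where called lower and grey where not called; black bars are list medians and the dashed line is the median of all genes, 0.04. The proliferation markers all lie to the right under every scaling run, the nucleolar targets centre on -0.02, with most calls higher under median and spike-in scaling and most lower under cyclic loess, quantile normalization and bright-probe scaling, and the genes known as repressed spread to both sides.

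The MLX arm, in which MLX pairs with MLXIP or MLXIPL and senses sugar phosphates, is joined to the network through shared MXD and MNT partners. Arrdc4, a sugar-responsive target of that arm, read -0.58, -0.59, -0.66 and -0.84 on the siRNA arrays, and 0.41, 0.66, 0.61 and 0.19 on the NC arrays. The groups did not overlap, and it fell by 1.13 ± 0.11 (SE; limma, adjusted p = 0.000105). Txnip, its sister gene and the arm's best known target, read 2.04, 2.05, 2.20 and 1.98 on the siRNA arrays, and 1.98, 1.90, 1.74 and 1.82 on the NC arrays. Txnip's difference of 0.21 ± 0.07 was called narrowly with overlap at the margin (SE; limma, adjusted p = 0.0375), and the call was lost under quantile normalization and cyclic loess among others. Mlx differed by -0.36 ± 0.06 (SE; limma, adjusted p = 0.00114) and turned to 0.16 under spike-in scaling. It also lost its call with median scaling (-0.05, limma, adjusted p = 0.555) and normexp background correction (-0.13, adjusted p = 0.599). Mlxip averaged -3.37 ± 0.96 in siRNA cells and -3.30 ± 0.97 in NC cells (SD, n = 4 each), was above background on 3 arrays of each group and was not called (adjusted p = 0.927). Mycl, Mycs and Mlxipl had probes that did not pass the filter on dim signal, and Mga was not analysed here.

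Among 20 measured cofactors and corepressors, 7 were higher and 5 lower, with a median of 0.07, where 35.8% of all genes were higher and 29.2% lower. Ccnt1, the cyclin of the elongation kinase P-TEFb, fell by 1.39 ± 0.08 (SE; limma, adjusted p = 1.04e-05), and its kinase Cdk9 differed by -0.24. Ccnt1 was dim, averaging -3.83 on siRNA arrays and -2.45 on NC arrays. Its difference shrank to -0.84 with normexp background correction (limma, adjusted p = 0.0431). Zbtb17 (MIZ1), through which MYC represses genes, differed by -0.43 and Bin1, a MYC-binding adaptor, by -0.40. The corepressor Sin3b rose by 0.34, and Ruvbl1 and Ep400, of chromatin remodelling complexes, by 0.36 and 0.33. Under spike-in scaling 17 were higher and 1 lower, with Cdk9, Zbtb17 and Bin1 turned in sign, and under median scaling 13 were higher and 2 lower, with Cdk9 turned. Normexp background correction left 1 higher and 1 lower.

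Of 14 measured genes that set the stability of the MYC protein, 7 were higher and 3 lower, with a median of 0.18, read against the same 35.8% and 29.2% of all genes. Cip2a, an inhibitor of the PP2A phosphatase, rose by 0.69, Ppp2r5a, a PP2A subunit, by 0.69, Aurka, a mitotic kinase that shields MYCN from degradation, by 0.70 and Skp2, a ubiquitin ligase subunit, by 0.66. With normexp background correction Cip2a differed by 0.24 (adjusted p = 0.399) and Skp2 by 0.25 (adjusted p = 0.304), and neither was called. Usp36, a nucleolar deubiquitinase, fell by 0.81 ± 0.10 (SE; limma, adjusted p = 0.000231), although its call was lost under spike-in scaling (-0.29, adjusted p = 0.0518) and normexp background correction (-0.57, adjusted p = 0.0753). Gsk3b, the kinase that marks MYC for degradation, differed by -0.32 and Trim32, a ubiquitin ligase, by -0.20, both turned in sign by spike-in scaling and Trim32 also by median scaling. The arrays measured transcripts, and MYC protein was not analysed here.

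The E-box CACGTG, the preferred binding sequence of MYC and MAX pairs, reads the same on both strands and was searched for in the RefSeq promoters of rat build GRCr8, from 250 bases before to 50 after each start. Of the 6 members with an entry, Max, Mxd4 and Mnt held it and Mxd1, Mxi1 and Mxd3 did not. Of all 27457 promoters 6.65% held it, as did 9 of 27 nucleolar targets, 8 of 32 growth and metabolism targets, 2 of 16 genes known as repressed and none of 8 proliferation markers. In the other lists 1 of 17 cofactors and corepressors held it, 2 of 13 turnover genes and 2 of 7 genes of the MLX list. Myc and Mycn are named only. The 3 member promoters with the motif are printed for the 250 bases before the start, in the direction of transcription with the E-box in capitals, because they are the member promoters that hold the network's own binding sequence: Max lies at chr6:101395291-101395540 (minus strand), Mxd4 at chr14:80786531-80786780 (plus strand) and Mnt at chr10:60197709-60197958 (plus strand).
Max: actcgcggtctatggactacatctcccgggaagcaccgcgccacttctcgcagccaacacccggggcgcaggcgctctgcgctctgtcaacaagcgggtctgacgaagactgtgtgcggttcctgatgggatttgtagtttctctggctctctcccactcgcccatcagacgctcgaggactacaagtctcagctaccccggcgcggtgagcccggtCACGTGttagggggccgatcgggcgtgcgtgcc
Mxd4: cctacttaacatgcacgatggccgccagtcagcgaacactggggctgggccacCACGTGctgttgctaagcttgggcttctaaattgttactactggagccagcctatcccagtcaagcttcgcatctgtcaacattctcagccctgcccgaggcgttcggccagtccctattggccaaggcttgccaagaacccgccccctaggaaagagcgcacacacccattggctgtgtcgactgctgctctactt
Mnt: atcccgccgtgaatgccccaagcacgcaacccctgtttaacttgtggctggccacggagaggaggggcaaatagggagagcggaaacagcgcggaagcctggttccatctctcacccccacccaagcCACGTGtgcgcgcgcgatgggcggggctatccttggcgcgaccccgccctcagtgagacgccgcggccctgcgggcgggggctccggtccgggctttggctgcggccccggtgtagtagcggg
The motif began 33 bases before the start in Max, 197 in Mxd4 and 123 in Mnt. A match is a description of these letters, and binding was not measured.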

How the data were processed

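The authors deposited scanner files with the spot intensity of 8 one-colour arrays; per the file headers, background was subtracted and trends removed within arrays by Agilent Feature Extraction 12.0.3.1 (12.0 in the submitters' processing notes), with no scaling between arrays. The authors' deposited log2 series table held none of the member probes and was not used. The submitters' processing notes also name limma. Precision is limited by the number of arrays.

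Here, control spots (45018 spots per array, 43379 not controls) and the 129 to 174 spots an array that carried an outlier mark were dropped, and none was saturated. From log2 processed intensities the 75th percentile over the array's non-control spots was subtracted, and spots of a probe were averaged. Probes well above background on at least 3 of the 4 arrays of a group were kept (24853). The test was limma's moderated test (version 3.58.1, R 4.3.3, two-sided, no covariate, Benjamini-Hochberg adjustment over all kept probes). It was also run on arrays simulated from these data. There only a small share of probes was changed, whereas most probes were called on the real arrays. Within-array differences used SciPy 1.17.1. Genes were named through the accession or symbol in the RefSeq gene table of GRCr8 (18019 probes by accession, 3177 by current and 400 by older symbol), each by its brightest kept probe. Members were all named; in each list, up to 4 called genes per direction with the smallest adjusted p were named, and every measured gene of the MLX list; cell type markers were given mainly as sums. The 5 genes with the profile closest to that of Myc were also named. Of the genes this rule picked, 2 are not reported here. The members and lists were chosen with earlier results of these data known. Alternatives were other scalings, background correction, filters, outlier handling, eBayes settings, the replicate number as a block and leaving out each array.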

Additional observations from a re-analysis of the deposited data

Results flagged for a closer look

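In 2 of the 20 groups of 4 arrays examined for a lone value, an array stood apart by more than Dixon's 95% critical value for the gap divided by the group's range; chance gives about 1 in 20. Both concerned Mxi1. On siRNA array 2 it read -1.43, above the other 3 siRNA arrays with a gap of 0.931 of the range. On NC array 3 it read -1.82, above the other 3 NC arrays with a gap of 0.889 of the range. Without siRNA array 2 the difference was 0.24 (limma, adjusted p = 0.0337), and without NC array 3 it was 0.38 (limma, adjusted p = 0.0129).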

How the results depend on the processing

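Myc, both Mycn probes, Mxd1 and Mxd3 kept their direction and their call in all 20 alternatives (Myc -1.93 to -1.30, brighter Mycn probe 0.85 to 1.58, dimmer 0.76 to 1.48, Mxd1 -1.41 to -0.66, Mxd3 0.96 to 2.52); the end of -0.66 came from a normexp setting without spots dimmer than their local background, chosen after seeing the data. Max turned to 0.16 with spike-in scaling and Mxi1 to -0.10 with normexp; the cause was not tested. Mnt, never called, turned to -0.0008 with scaling to bright probes, -0.30 with normexp, -0.0013 with normexp without dim spots, and -0.18, -0.08 and -0.01 without siRNA array 3, NC array 1 and NC array 2 (range with 1 array left out, -0.18 to 0.35). Member probes called higher numbered 3 with normexp and 4 to 6 with 1 array left out. All probes, 7310 higher and 8006 lower, gave 13020 and 4211 under median scaling, 15977 and 2773 under spike-in scaling and 1935 and 1694 under normexp. Counts of list genes called higher and lower were as follows. Nucleolar targets gave 3 and 12 under cyclic loess, 22 and 1 under median scaling, 26 and 0 under spike-in scaling, 0 and 0 with normexp, and 11 lower with quantile normalization or bright-probe scaling and 10 lower with the mean of a gene's probes. Growth targets gave 11 higher under cyclic loess, 29 and 0 under median scaling, 34 and 0 under spike-in scaling and 4 and 0 with normexp. Repressed genes gave 8 higher with spike-in scaling and 6, 5 and 4 lower with median scaling, spike-in scaling and normexp. They gave 12 lower with quantile normalization, cyclic loess and bright-probe scaling. The MLX list gave 0 higher with quantile normalization, cyclic loess, bright-probe scaling and normexp, 0 to 1 with 1 array left out, and 1 lower with median scaling, spike-in scaling and normexp. Cofactors gave 13 and 2 under median scaling, 17 and 1 under spike-in scaling, 1 and 1 with normexp, and 8 lower with cyclic loess or bright-probe scaling. Turnover genes gave 11 and 1 under median scaling, 13 and 0 under spike-in scaling and 2 and 0 with normexp. Within arrays, normexp gave -1.13 for Myc minus Max, -1.40 for Myc minus Mxi1 and -1.19 for Myc minus Mnt (each exact p = 0.0857), and quantile normalization -0.77 for Myc minus Mxd1 (exact p = 0.0286). With the replicate number as a block, 7097 probes were higher and 7895 lower, 6 member probes stayed higher and 3 lower, and the MLX list lost Txnip (0 higher); same-numbered arrays' deviations correlated at -0.0321 to 0.209 and 1 of 4 siRNA arrays correlated best with its own number, so the numbers were not taken to pair the arrays. The authors' series table was not run as an alternative because it holds no member probe. Signal over background limits the dim members: Mxd1 read 29.6 to 35.7 on siRNA arrays, below the normexp offset of 50. Mxd3 read 48.1 to 85.5 on NC arrays, with NC array 3 below that offset.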
